A study of Mus musculus with 18 samples.

Results

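The 50 cell cycle and DNA replication genes described here are genes of S phase, mitosis and cytokinesis, chosen by name from a table of 55487 genes, with earlier results of these data known. They were followed in 18 RNA sequencing libraries of flow-sorted mouse retina. The sort separated live CD11b+ cells, which hold the microglia (the resident macrophages of neural tissue), from live CD11b- cells, which hold the other retinal cells and are called retina below. DAPI, a dye that enters dead cells, was used to leave those out. Control mice were Bmal1f/f, in which Bmal1, a gene of the circadian clock, is floxed, and knockout mice were Bmal1-mg/-mg, which lack Bmal1 in microglia. Each fraction had 4 control and 5 knockout libraries. The labels name no drug or other treatment for any group, and they do not give the Cre driver, the age or the sex of the mice. They number the samples of a group without stating whether these were separate mice, so the p-values below refer only to the spread among these samples, which may be technical in part.

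A cell that prepares to divide first loads the MCM helicase onto replication origins, and the factors CDC6 and CDT1 do this loading. Ribonucleotide reductase, thymidylate synthase and thymidine kinase then supply the nucleotides for S phase. Cyclins with CDK1 drive entry into mitosis, kinases such as PLK1 and the Aurora kinases organise it, and kinetochore, spindle and cytokinesis proteins carry it out. E2F factors switch on the S phase genes, while the MuvB complex with FOXM1 and B-MYB acts through CHR elements on the genes of G2 and mitosis. Adult retinal neurons have left the cell cycle for good, and microglia of the healthy adult retina divide rarely.

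Levels below are in CPM, the count scaled to the total of the library. Library totals lay between 32277156 and 47563119 counts, and 3 counts were worth 0.0631 to 0.0929 CPM. Microglia libraries had counts for 18654 to 19363 genes in controls and for 17343 to 18438 in knockouts, without overlap. The summed level of 14 microglia markers ran from 54741 to 59861 CPM in control and from 49889 to 53565 CPM in knockout microglia, against 8.78 to 23.7 CPM in retina, and all 14 were at 1 CPM or more in every microglia library. The targeted gene, listed as Arntl, had log2 changes of -0.44 (SE 0.62, edgeR adjusted p = 0.999) in microglia and -0.35 (SE 0.17, edgeR adjusted p = 0.392) in retina, and the count covers the whole gene, so it does not check a deletion of part of it. The genotypes were taken as labelled. Xist, expressed from the inactive X chromosome of females, had 40.9 CPM in microglia replicate 1 of the controls and 37.4 CPM in that of the knockouts, and at most 0.0488 CPM in the other microglia libraries. In retina it had 13.3 CPM in knockout replicate 1 and 0.0841 CPM in control replicate 1, so the control libraries numbered 1 did not match each other in this gene. Calls in microglia are therefore also given without the libraries numbered 1.

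In knockout microglia the cell cycle genes stood higher nearly throughout. The mean level was higher in knockouts for 48 of the 50 genes, the exceptions being the checkpoint kinase gene Bub1 and the cytokinesis gene Ect2. The median log2 ratio of the group means was 1.71 over the 50, against -0.089 over 21646 genes with reads in both groups, of which 44.1% had the higher mean in knockouts. The summed level of the 50 genes was 399, 503, 417 and 445 CPM in control replicates 1 to 4. The sum was 773, 962, 1001, 1094 and 1027 CPM in knockout replicates 1 to 5. The lowest knockout library thus lay above the highest control library, and the means were 441 ± 45.5 and 971 ± 121 CPM (SD, n = 4 and 5), a ratio of 2.20. In controls 30 to 36 of the 50 genes reached 1 CPM in a library, and in knockouts 40 to 47 did, although the knockout libraries had counts for fewer genes in all. In these bulk samples a larger share of dividing cells and more of these transcripts per cell cannot be told apart.

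Single genes mostly did not pass a test across all genes. With edgeR's quasi-likelihood test, 3 of the 50 rose at an adjusted p under 0.05, namely Pbk, Racgap1 and Stmn1, and 0 fell. Over all 14835 genes tested in microglia 0.101% rose and 0.0135% fell. At an unadjusted p under 0.05 there were 16 of the 50, where the share over all genes was 5.76%. DESeq2 called 12 of the 50 higher (1.32% of all genes): Racgap1, Pbk, Stmn1, Rrm2, Plk1, Top2a, Ndc80, E2f1, Tk1, Mcm6, Mcm5 and Mcm3. In the authors' deposited table for microglia, 7 of the 49 members it lists were higher at an adjusted p under 0.05 (0.444% of all genes there): Pbk, Rrm2, Stmn1, Racgap1, Plk1, Ndc80 and Top2a. For 12 of the 50, every knockout library lay above every control library, which was so for 1.5% of all genes tested, and for 0 of the 50 every knockout lay below (1.87%). These were Gins2, Rrm2, Ccna2, Ccnb2, E2f1, Aurkb, Pbk, Birc5, Top2a, Nusap1, Stmn1 and Racgap1.

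**Figure D1:**
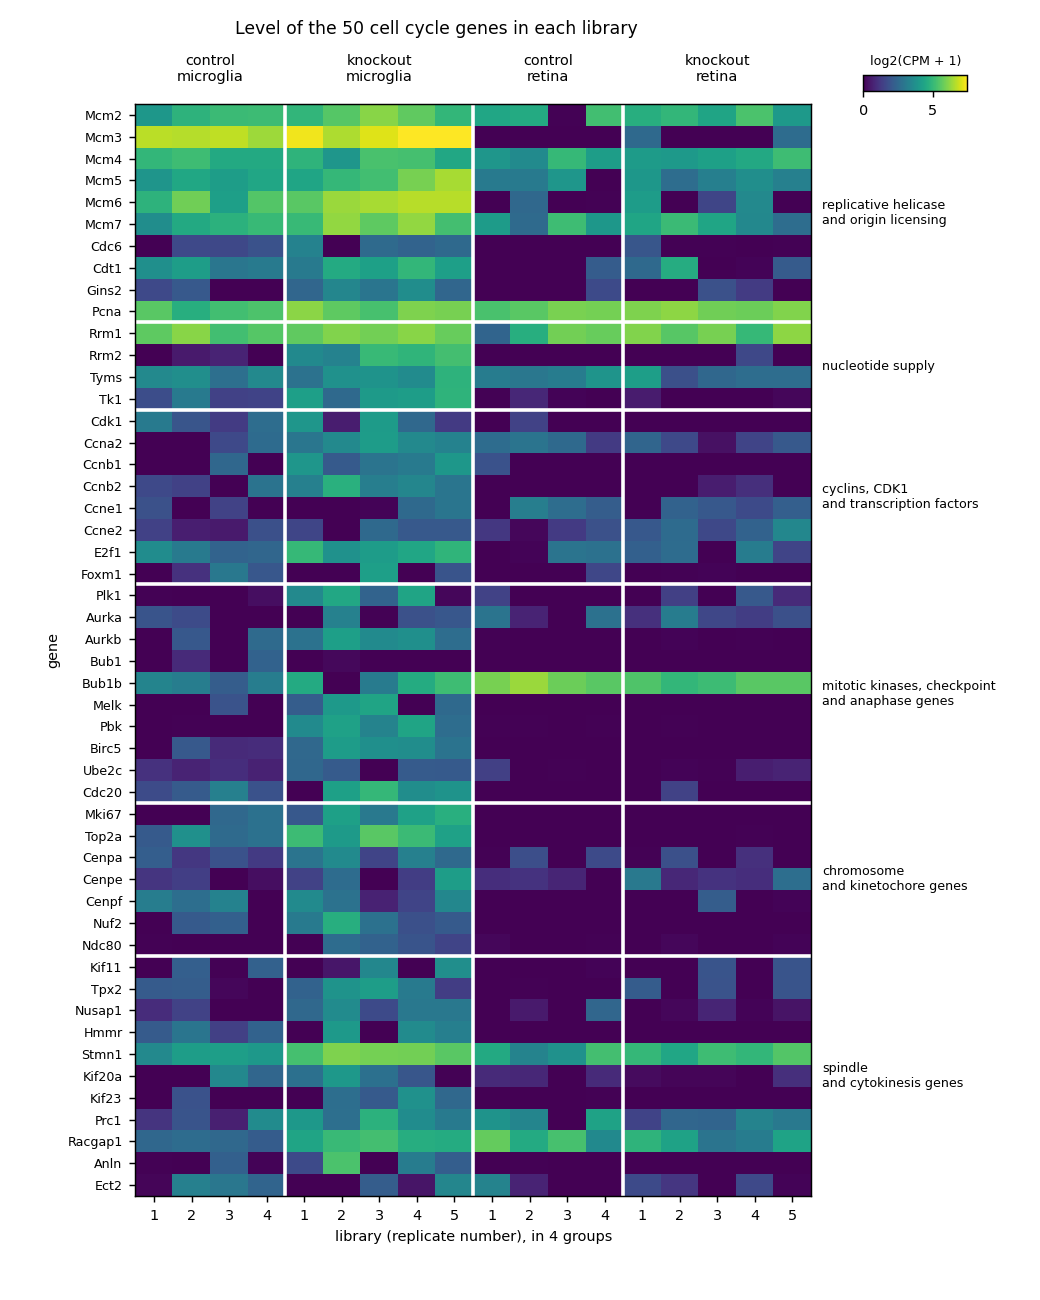
Level of each of the 50 genes (rows, grouped by role) in each of the 18 libraries (columns, by replicate number in 4 groups), as log2(CPM + 1) by colour. Knockout microglia have 40 to 47 genes at 1 CPM or more in a library, control microglia 30 to 36, and most mitotic genes are dark in both retina groups.

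Promoter sequence was looked at to describe the list. The genes were chosen by name as genes of S phase, mitosis and cytokinesis. The shares below therefore follow from that choice and not from levels in these libraries. RefSeq windows on GRCm38.p6, from 250 bases before to 50 bases after the gene start, matched 40 of the 50 genes by symbol. A CHR element (TTTGAA or TTTAAA on either strand) was present in 27 of the 40 windows, or 67.5%, against 27.8% of all 27025 windows of this length. A CCAAT box (CCAAT on either strand) was in 28 of them, or 70%, against 37.9% of all windows. An E2F motif (TTTCCCGC, TTTGGCGC, TTTGCCGC or TTTCGCGC on either strand) was in 7, or 17.5%, against 2.32% of all. The E-box CACGTG, the element bound by BMAL1 with CLOCK, was in 2 windows, those of Anln and Tyms, or 5%, against 7.24% of all. By role, the E2F motif was in 6 of 8 windows of helicase and licensing genes (Cdc6, Cdt1, Mcm3, Mcm5, Mcm6 and Mcm7) and otherwise only in that of Cdk1. The CHR element was in 2 of those 8 windows, in 6 of 8 of the mitotic kinase, checkpoint and anaphase genes, in 6 of 7 of the chromosome and kinetochore genes and in 7 of 8 of the spindle and cytokinesis genes. Nucleotide supply genes had the CHR element in 2 of 4 windows, and the cyclins, Cdk1 and transcription factors in 4 of 5. A match shows these letters only, not a site in use, and matches may overlap, as neighbouring E2F motifs do in Mcm6. Rrm2, an S phase gene that is not printed, has a CHR element and no E2F motif in its window. The bases before the start are printed for a helicase gene and 3 mitotic genes. These and Rrm2 had the smallest p in the microglia genotype comparison among genes with a long enough stretch and a motif in it. Unlike the shares above, this choice therefore depends on levels in these libraries. The printed bases run 5′ to 3′ on the strand of the gene, with motif matches in capitals. Mcm6 lies at chr1:128359706-128359955 (minus strand) and holds 3 E2F motifs and 2 CCAAT boxes. Top2a lies at chr11:99024190-99024439 (minus strand) with 2 CHR elements and 6 CCAAT boxes. Plk1 lies at chr7:122159185-122159434 (plus strand) with 2 CHR elements and 1 CCAAT box in the stretch. Racgap1 lies at chr15:99651657-99651906 (minus strand) with 1 CCAAT box in the stretch and its CHR element after the start.
Mcm6: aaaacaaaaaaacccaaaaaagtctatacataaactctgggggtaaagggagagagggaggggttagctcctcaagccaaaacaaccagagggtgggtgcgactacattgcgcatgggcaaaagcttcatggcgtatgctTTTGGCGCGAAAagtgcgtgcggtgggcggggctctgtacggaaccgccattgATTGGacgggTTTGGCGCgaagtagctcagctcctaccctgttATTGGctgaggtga
Top2a: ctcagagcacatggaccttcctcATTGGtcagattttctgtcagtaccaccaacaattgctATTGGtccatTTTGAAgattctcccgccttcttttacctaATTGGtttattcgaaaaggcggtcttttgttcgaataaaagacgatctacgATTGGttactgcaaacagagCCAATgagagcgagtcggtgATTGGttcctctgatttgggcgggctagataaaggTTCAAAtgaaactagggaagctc
Plk1: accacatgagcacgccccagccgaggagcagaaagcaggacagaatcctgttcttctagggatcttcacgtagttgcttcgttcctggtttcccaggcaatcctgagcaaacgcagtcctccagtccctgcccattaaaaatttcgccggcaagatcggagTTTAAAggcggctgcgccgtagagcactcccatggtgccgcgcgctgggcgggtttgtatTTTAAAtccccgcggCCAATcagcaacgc
Racgap1: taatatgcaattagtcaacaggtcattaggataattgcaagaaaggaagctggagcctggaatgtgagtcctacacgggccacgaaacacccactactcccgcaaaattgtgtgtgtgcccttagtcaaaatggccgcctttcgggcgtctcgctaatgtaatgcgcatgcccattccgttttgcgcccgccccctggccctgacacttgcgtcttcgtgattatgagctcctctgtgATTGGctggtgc

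The helicase and licensing genes had the smallest ratio of the 6 role sums. Their summed level was 277 ± 20.4 CPM in control and 485 ± 82.3 CPM in knockout microglia (SD, n = 4 and 5), or 1.75 as a ratio, and the libraries of the genotypes did not overlap. All 10 had positive log2 changes (median 1.06), 5 were at an unadjusted p under 0.05, and 0 passed edgeR's test. Mcm3, a subunit of the helicase ring, had the highest level of the 50 per kilobase of exon, 25.7 CPM per kb in control and 38.7 in knockout microglia. Its level was 102, 97.9, 105 and 80.6 CPM in the 4 controls, in the order of their numbers, and 156, 92.2, 134, 170.0 and 173 CPM in the 5 knockouts. Knockout replicate 2 fell among the controls and the other 4 lay above them (log2 change 0.64, SE 0.19, edgeR adjusted p = 0.473).

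Mcm6 and Mcm5, subunits of the same ring, differed by more. Mcm6 had 27.2, 56.0, 17.5 and 43.1 CPM in the control libraries and 45.5, 79.6, 87.8, 98.6 and 99.4 CPM in the knockout libraries. Only knockout replicate 1 lay within the range of the controls (log2 change 1.25, SE 0.36, edgeR adjusted p = 0.438). Mcm5 had 13.8, 20.5, 16.8 and 20.1 CPM in the control libraries and 19.8, 30.1, 35.8, 59.0 and 87.9 CPM in the knockout libraries. Here too the overlap came from knockout replicate 1 (1.42, SE 0.41, edgeR adjusted p = 0.438). Mcm7 had a log2 change of 1.27 and Mcm2 one of 0.77, both without passing, and reads of Mcm7 may include some of the antisense gene Ap4m1, since counting by strand is not stated. Mcm4 was nearly level, at 27.0 ± 5.89 and 27.7 ± 10.3 CPM (0.09, SE 0.33). Pcna, the sliding clamp of the replication polymerases, had 36.6 ± 8.94 and 55.8 ± 13.1 CPM (0.66, SE 0.24). The loaders Cdc6 and Cdt1 and the GINS subunit Gins2 were lower genes with log2 changes of 1.45, 0.87 and 2.52, and Gins2 had reads in 2 of 4 control and 5 of 5 knockout libraries. Exons of Gins2 overlap those of Gse1 on the opposite strand.

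The 4 genes of nucleotide supply all had positive log2 changes (median 1.48), and 0 passed edgeR's test. Rrm2, the subunit of ribonucleotide reductase that is made in S phase, was at 0, 0.464, 0.662 and 0 CPM in the control libraries and at 10.6, 8.92, 31.2, 28.2 and 36.7 CPM in the knockout libraries. Every knockout library lay far above the controls, in which the gene had 47 reads in all (6.36, SE 1.40, edgeR adjusted p = 0.22, DESeq2 adjusted p = 1.37e-06). Tk1, the thymidine kinase of dividing cells, had 2.38, 7.39, 1.70 and 1.82 CPM in the control libraries and 17.6, 4.86, 15.8, 16.8 and 27.5 CPM in the knockout libraries. Control replicate 2 and knockout replicate 2 crossed over (2.34, SE 0.65, edgeR adjusted p = 0.419). Rrm1, the large reductase subunit that stays through the cycle, had 47.6, 69.2, 35.3 and 43.9 CPM in the control libraries and 48.5, 65.2, 56.6, 68.4 and 51.2 CPM in the knockout libraries. The ranges overlapped almost fully (0.30, SE 0.22, edgeR adjusted p = 0.999). Tyms, thymidylate synthase, had 9.44 ± 2.69 and 14.0 ± 7.95 CPM. The sum of these 4 genes was the only one of the 6 role sums in which the genotypes overlapped in microglia, with 43.2 to 88.7 CPM in controls and 82.7 to 143 CPM in knockouts.

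The cyclins, Cdk1 and the transcription factors summed to 21.6 ± 5.91 CPM in control and 69.2 ± 12.9 CPM in knockout microglia, a ratio of 3.20. All 8 had positive log2 changes, and 0 passed edgeR's test. E2f1, an activator of S phase genes, had 11.3, 7.17, 4.16 and 4.49 CPM in the control libraries and 30.9, 12.7, 16.3, 20.4 and 28.1 CPM in the knockout libraries. The genotypes did not overlap (1.72, SE 0.42, edgeR adjusted p = 0.302, DESeq2 adjusted p = 0.00346). The G2 cyclins Ccna2 (1.80 ± 2.39 and 10.5 ± 3.53 CPM) and Ccnb2 (2.51 ± 2.63 and 11.6 ± 7.92 CPM) did not overlap either, while each had a control library at 0. Ccnb1, cyclin B1, was at 0 in 3 of 4 controls and between 3.27 and 14.3 CPM in all 5 knockouts. Cdk1 itself ran from 1.47 to 7.15 CPM in controls and from 0.504 to 16.1 CPM in knockouts. Ccne1, Ccne2 and Foxm1 overlapped, and Foxm1 was at 0 in 3 of 5 knockout libraries. Reads of Ccne2 and Ccna2 could include those of Ints8 and Exosc9, which overlap them on the opposite strand, and those of Ccnb2 and Ccnb1 could be shared with processed pseudogenes.

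The mitotic kinases, checkpoint and anaphase genes had the largest ratio of the 6 role sums, 18.7 ± 3.13 CPM in control against 90.6 ± 21.7 CPM in knockout microglia, or 4.86. Pbk (ENSMUSG00000022033, chromosome 14, 65805837 to 65817822, plus strand, GRCm38), a mitotic kinase gene, rose from almost nothing. It was at 0, 0.0244, 0 and 0 CPM in the control libraries and at 10.8, 18.3, 9.14, 19.2 and 5.33 CPM in the knockout libraries. That is 1 read in 4 control libraries against 2402 in 5 knockout libraries, or 2007 times as many per total count, and its 95% interval for counting error alone ran from 359.8 to 79286. Reads amplified from few molecules carry further error. edgeR gave a log2 change of 10.46 (SE 1.13, adjusted p = 0.0114), a size that depends on the prior count.

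Plk1, the polo kinase of mitotic entry, was at 0.0234, 0, 0 and 0.214 CPM in the control libraries and at 10.4, 20.9, 4.18, 19.3 and 0.103 CPM in the knockout libraries. It was thus near 0 in knockout replicate 5 as well and above 4 CPM in the other 4 (7.58, SE 1.89, edgeR adjusted p = 0.317). Bub1b, the spindle checkpoint gene of BUBR1, had 9.26, 7.86, 3.54 and 7.86 CPM in the control libraries and 22.7, 0, 7.51, 23.0 and 34.3 CPM in the knockout libraries. The spread among the knockouts spanned the controls (1.34, SE 1.22, edgeR adjusted p = 0.999). Aurkb, the Aurora kinase of the chromosomal passenger complex, had 2.02 ± 2.45 and 10.4 ± 4.97 CPM, and its partner Birc5, survivin, 1.25 ± 1.37 and 10.2 ± 4.74 CPM, both without overlap. Aurka, of the spindle poles, had 1.26 ± 1.47 and 2.86 ± 3.55 CPM. Cdc20 and Ube2c, an activator and a conjugating enzyme of the anaphase-promoting complex, were both at 0 in a single knockout library and otherwise above the control mean. Exons of Ube2c overlap those of Tnnc2 on the opposite strand. Melk was at 0 in 3 of 4 controls and in 1 of 5 knockouts. Bub1 did not pass the filter on low counts: it had 186 reads in controls, in replicates 2 and 4, and 5 in knockouts.

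Chromosome and kinetochore genes summed to 19.7 ± 5.82 CPM in control and 72.2 ± 9.95 CPM in knockout microglia, a ratio of 3.67. Top2a, the topoisomerase that untangles replicated DNA, had 3.34, 12.2, 4.96 and 5.82 CPM in the control libraries and 33.2, 15.7, 45.1, 33.0 and 18.3 CPM in the knockout libraries. All 5 knockouts lay above the highest control (2.19, SE 0.49, edgeR adjusted p = 0.236, DESeq2 adjusted p = 0.000761). Ndc80, of the complex that binds kinetochores to microtubules, was at 0.0234, 0, 0 and 0 CPM in the control libraries and at 0, 5.14, 4.07, 2.85 and 1.91 CPM in the knockout libraries. Knockout replicate 1 had no read and the other 4 had 540 between them, against 1 in the controls (8.31, SE 1.93, edgeR adjusted p = 0.258). Its partner Nuf2 had 1.80 ± 2.09 and 8.74 ± 9.05 CPM. Mki67, the common marker of dividing cells, was at 0 in control replicates 1 and 2, at 4.77 and 5.82 CPM in replicates 3 and 4, and at 3.16 to 25.1 CPM in knockouts. Only knockout replicate 1 kept these ranges from parting (2.47, SE 1.62, edgeR adjusted p = 0.989). Cenpa and Cenpe had log2 changes of 1.55 and 2.75, and Cenpf, at 5.58 ± 3.98 and 5.82 ± 4.55 CPM, one of 0.08.

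Spindle and cytokinesis genes summed to 41.6 ± 12.1 CPM in control and 143 ± 42.2 CPM in knockout microglia, a ratio of 3.44. Racgap1 (ENSMUSG00000023015, chromosome 15, 99620496 to 99651656, minus strand), of the centralspindlin complex that directs cytokinesis, had 4.56, 5.20, 4.73 and 3.53 CPM in the control libraries and 19.4, 32.1, 36.6, 23.7 and 23.2 CPM in the knockout libraries. The control values were close together and every knockout library lay above them, and the gene rose by 2.64 on the log2 scale (SE 0.31, edgeR adjusted p = 0.0181). Stmn1 (ENSMUSG00000028832, chromosome 4, 134468320 to 134473843, plus strand), stathmin, which destabilises microtubules and is phosphorylated in mitosis, had 10.3, 16.7, 17.2 and 14.7 CPM in the control libraries and 36.9, 63.6, 57.8, 56.9 and 46.0 CPM in the knockout libraries. It rose without overlap by 1.88 (SE 0.25, edgeR adjusted p = 0.0304). Nusap1, a microtubule bundling protein, had 0.673 ± 0.854 and 6.38 ± 3.31 CPM, also without overlap. Kif23, the motor partner of Racgap1, was at 0 in 3 of 4 controls and in 1 of 5 knockouts. The motor gene Kif11, the spindle genes Tpx2, Hmmr and Prc1 and the midzone motor gene Kif20a had positive log2 changes between 0.72 and 2.34 and overlapped. Reads of Kif20a and Prc1 could include those of Cdc23 and Rccd1, which overlap them on the opposite strand. Anln, anillin of the contractile ring, ran from 0 to 39.1 CPM in knockouts. Ect2, the exchange factor that Racgap1 activates, had 4.87 ± 3.63 CPM in controls and 2.71 ± 4.15 CPM in knockouts (-0.85, SE 1.84).

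**Figure D2:**
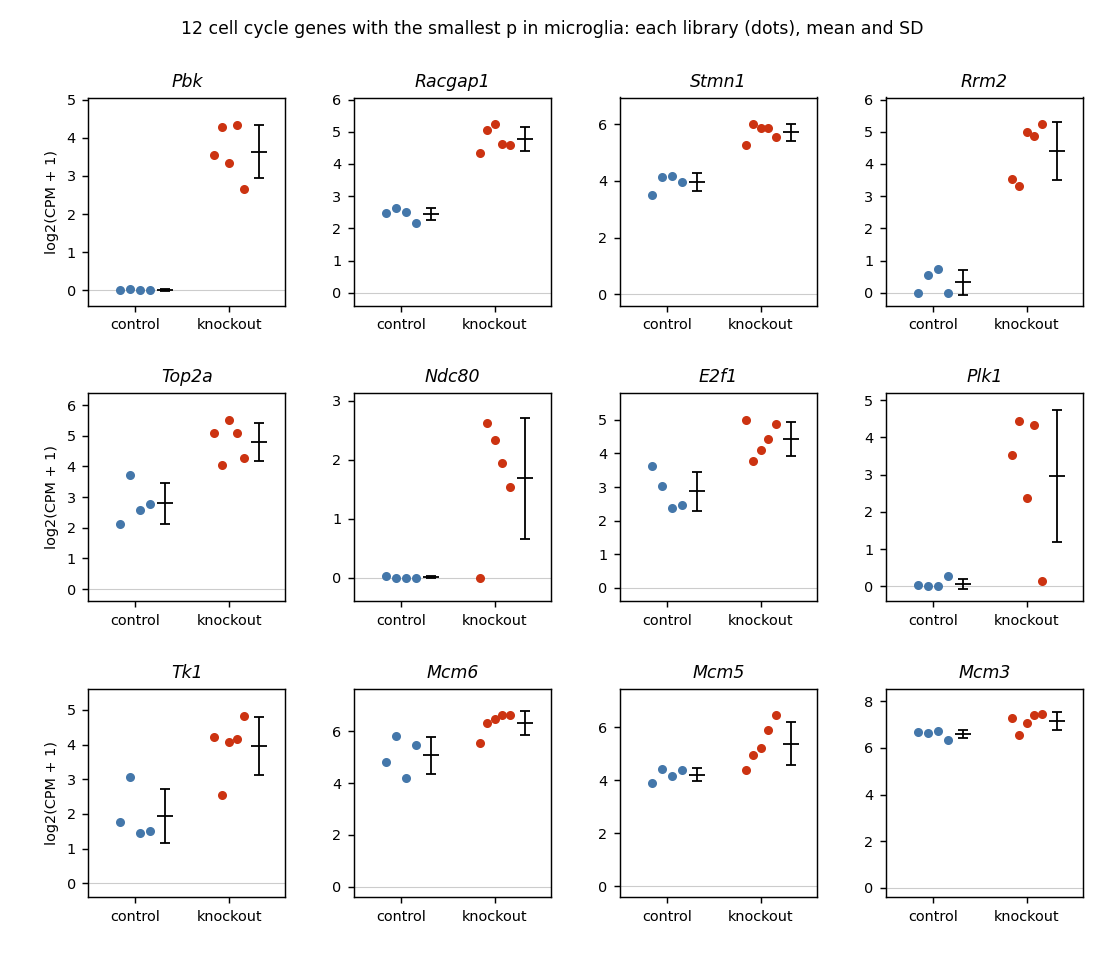
Levels as log2(CPM + 1) of the 12 genes with the smallest p in microglia, each library as a dot, with the mean and SD beside each group of 4 control and 5 knockout libraries. Pbk, Racgap1, Stmn1, Rrm2, E2f1 and Top2a part the genotypes fully, and for each of the other 6 genes 1 knockout library lies among the controls.

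The 3 calls did not hold with 3 control libraries. Leaving out any 1 control library left Pbk, Racgap1 and Stmn1 short of the threshold, with edgeR adjusted p up to 0.078, 0.0907 and 0.148, while the log2 changes stayed at or above 10.15 for Pbk, between 2.49 and 2.74 for Racgap1 and between 1.74 and 1.98 for Stmn1 over all 9 such fits. Leaving out knockout replicate 2, 3 or 4 did so for Stmn1 as well (adjusted p = 0.0565, 0.0629 and 0.0688). Without the libraries numbered 1, which had Xist reads, 0 of the 50 passed and the median log2 change of 49 genes was 1.91. In a fit with a covariate for how many genes were detected per library 0 passed and the median was 1.59, against 0.04 over all genes. The number of genes detected did not overlap between the genotypes in microglia, so this fit cannot separate it from genotype. The part of gene number in the result was not tested.

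Markers of other cells were compared in the same libraries. The 18 markers of monocytes, border macrophages and granulocytes summed to between 84.5 and 511 CPM in control and between 196 and 663 CPM in knockout microglia, and 12 of 15 measured had positive log2 changes (median 0.77, 0 called). Of these 18, the neutrophil genes Mpo and Elane were at 0 in every control microglia library. In knockout microglia 0 of the 18 were at 0 in every library, so both genes had reads there. The 10 lymphocyte markers summed to 19.7 to 57.5 CPM and 39.6 to 57.1 CPM, with Cd3d at 0 in all microglia libraries. The 10 retinal progenitor markers summed to 200.3 to 254 CPM and 205 to 299 CPM, with Fgf15 at 0 in all of them. Ccnd1, described below as a cell cycle gene, is also in this list. Of its 7 measured markers 3 had positive and 4 negative log2 changes (median -0.26, 0 called). All 6 erythroid markers were at 0 in knockout microglia. The erythroid markers summed to 0 to 84.2 CPM in controls. The 12 rod markers summed to 7162 to 10925 CPM in control and 4920 to 11533 CPM in knockout microglia. The 10 Mueller glia and astrocyte markers summed to 1763 to 7037 CPM and 3725 to 6158 CPM. The mean of that sum was 3633 CPM in control microglia and 2207 CPM in control retina. The 10 endothelial and pericyte markers summed to 51.9 to 111 CPM and 39.1 to 110 CPM. The ranges of the genotypes overlapped or touched for each of these lists, and their part in the cell cycle result was not tested.

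**Figure D3:**
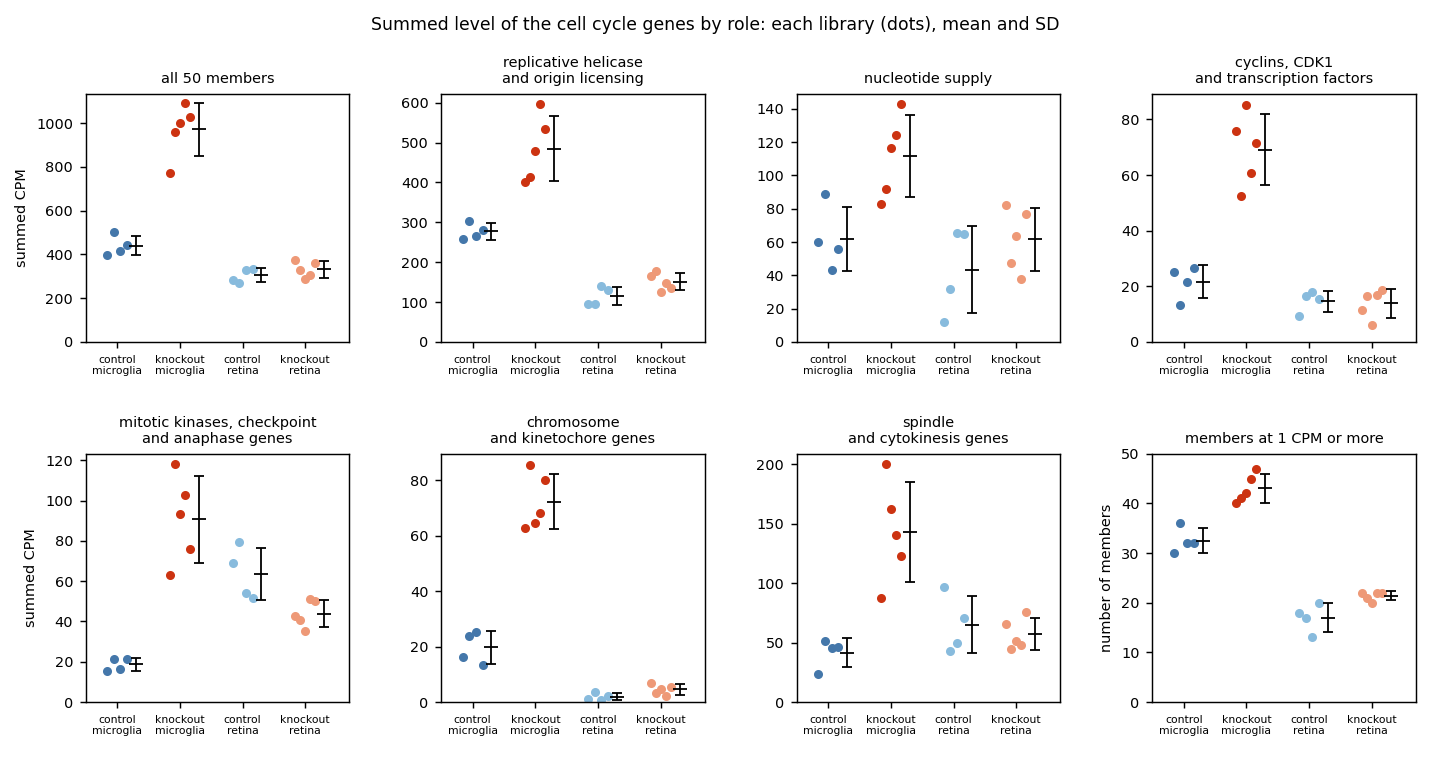
Summed CPM of the 50 genes and of each of the 6 roles in every library (dots), with mean and SD, and the number of the 50 genes at 1 CPM or more. Knockout microglia lie above control microglia in every panel except nucleotide supply, where they overlap. The retina groups overlap in all sums but that of the mitotic kinase, checkpoint and anaphase genes. That sum is lower in knockout retina and is mostly Bub1b. Bub1b has a mean of 59.4 of 63.5 CPM in control retina and 39.2 of 43.9 CPM in knockout retina.

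Within each group the libraries did not share one set of genes. In knockout microglia 14 of the 50 genes were at 0 in at least 1 library and above 5 CPM in another, and in control microglia 6 were. Among the 5 knockout libraries, replicates 1 to 5 held the highest value of 5, 14, 12, 6 and 13 genes. Knockout replicate 2 had the highest sums of mitotic kinase genes (118 CPM) and of spindle genes (200.2 CPM). The same library had the lowest knockout levels of Mcm3, Mcm4 and Tk1 and no reads of Cdc6 or Bub1b. Knockout replicate 4 had the highest helicase sum (597 CPM) and replicate 5 the highest nucleotide supply sum (143 CPM). The highest of all 9 microglia libraries was a knockout for 48 of the 50 genes. Without the helicase and licensing genes the sum of the other 40 was 164 ± 25.2 CPM in controls and 486 ± 67.8 CPM in knockouts, a ratio of 2.97.

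**Figure D4:**
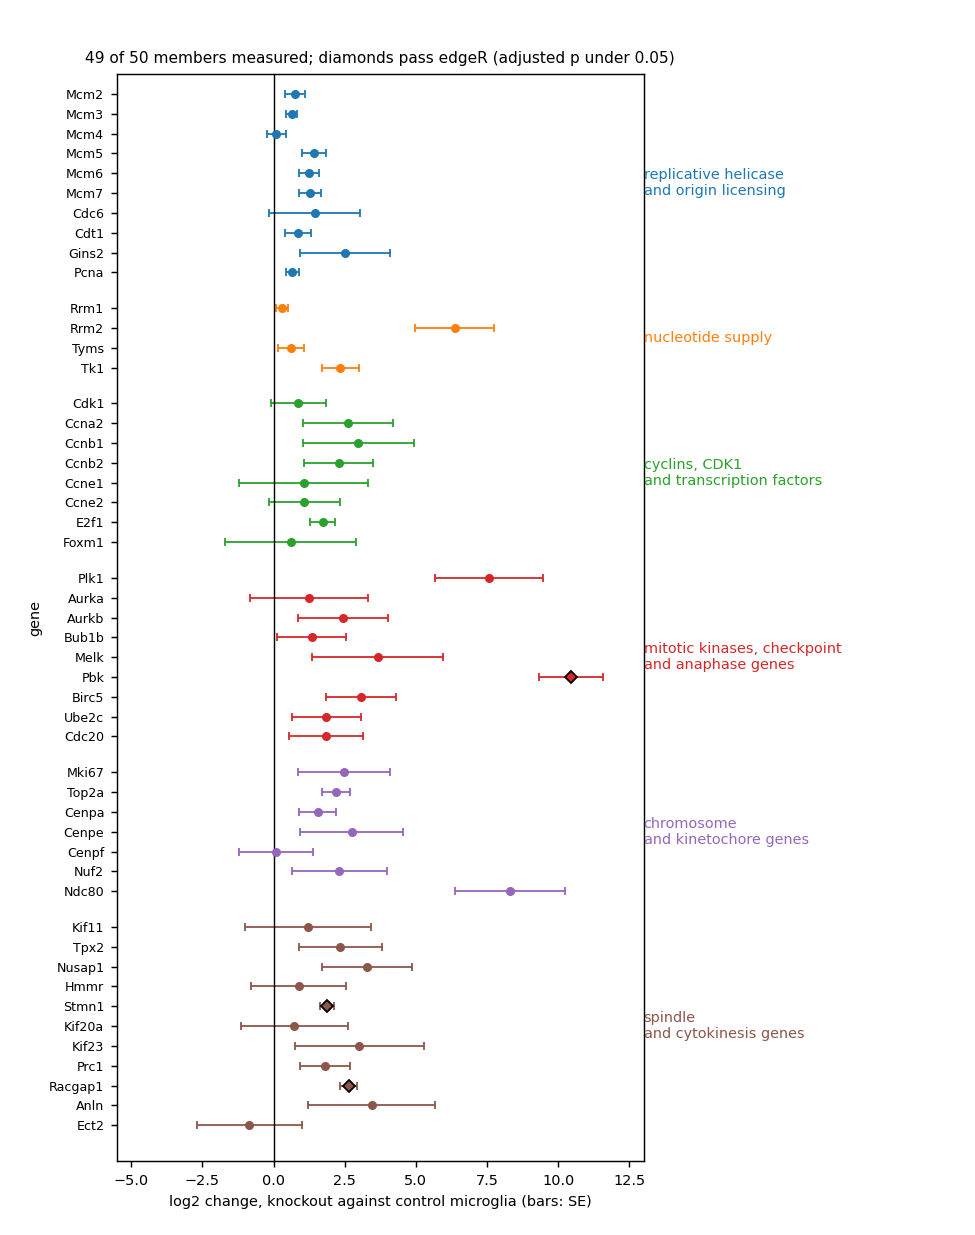
Log2 change of knockout against control microglia from edgeR (points) with its SE (bars) for the 49 genes that passed the filter on low counts, by role. Diamonds mark Pbk, Racgap1 and Stmn1, which passed at an adjusted p under 0.05, and Ect2 alone lies below 0.

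In the retina fraction the levels of the 50 genes overlapped between the genotypes. The summed level was 284, 269.6, 328 and 335 CPM in the control libraries and 375, 331, 287, 304 and 362 CPM in the knockout libraries, with overlapping ranges and a ratio of 1.09. The mean was higher in knockouts for 25 genes and lower for 19, and 6 genes had no read in any retina library. With edgeR 24 of the 50 passed the filter on low counts and 0 were called, where 1.66% of the 15332 genes tested were. DESeq2 and limma voom without and with quality weights also called 0, where they called 5.35%, 1.79% and 1.05% of all genes higher, and 1 gene was at an unadjusted p under 0.05, where 14.2% of all genes were. No gene had every knockout library above every control (6.32% of all genes did) or every one below (1.86%). The authors' deposited table for retina lists 21 of the 50, with 0 past an adjusted p of 0.05 (4.24% of all genes there were higher). Leaving genes unfiltered, 44 had a log2 change, with a median of 0.15, against 0.09 over all genes.

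The gene with the smallest p in retina was Bub1b, which also had the highest level per kilobase of exon among the mitotic kinase, checkpoint and anaphase genes there (13.9 CPM per kb in control retina). It had 59.4, 78.5, 54.0 and 45.8 CPM in control retina and 41.5, 29.4, 33.2, 45.7 and 46.0 CPM in knockout retina. The highest knockout lay just above the lowest control (-0.72, SE 0.23, unadjusted p = 0.0104, edgeR adjusted p = 0.158). With it the sum of the mitotic kinase, checkpoint and anaphase genes was 51.7 to 79.2 CPM in controls and 35.2 to 51.1 CPM in knockouts, without overlap. Most of that sum was Bub1b, with means of 59.4 of 63.5 CPM in controls and 39.2 of 43.9 CPM in knockouts. Ccne2, cyclin E2, had 1.30, 0.106, 1.41 and 2.59 CPM in control and 3.18, 5.13, 2.04, 4.02 and 9.87 CPM in knockout retina (1.79, SE 0.85, edgeR adjusted p = 0.391). Racgap1 had 51.0, 22.4, 37.5 and 10.7 CPM in control and 27.8, 18.6, 6.27, 7.65 and 18.8 CPM in knockout retina, with overlap (-1.03, SE 0.56, edgeR adjusted p = 0.481). Stmn1 had 22.2, 9.04, 12.5 and 36.0 CPM in control and 30.1, 20.3, 34.0, 29.2 and 43.1 CPM in knockout retina (0.60, SE 0.38, edgeR adjusted p = 0.565). E2f1, at 3.04 ± 3.48 and 3.74 ± 2.97 CPM, had a log2 change of 0.21 (SE 1.78) whose sign turned when single libraries were left out. Rrm1 ran from 4.29 to 57.5 CPM in control and from 30.5 to 71.2 CPM in knockout retina. Markers of other cells differed in the same retina libraries. The 12 rod markers summed to 168555 to 209423 CPM in controls and to 135291 to 159301 CPM in knockouts, without overlap, and all 12 had negative log2 changes, 6 of them past edgeR's threshold. The 10 retinal progenitor markers, which Mueller glia share in part, summed to 163 to 343 CPM in controls and 530 to 907 CPM in knockouts. Ccnd1 is one of these 10. The 18 markers of monocytes, border macrophages and granulocytes summed to 1.82 to 11.6 CPM and 21.0 to 30.9 CPM, also without overlap. The 10 endothelial and pericyte markers summed to 116 to 260.0 CPM and 242 to 582 CPM, which overlapped, with a ratio of the means of 2.49. The part of these markers in the levels of Bub1b and of the mitotic kinase sum was not tested.

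The difference between the genotype effect in microglia and that in retina was tested in one fit over all 18 libraries. Pbk (difference 11.87 on the log2 scale, SE 1.64, edgeR adjusted p = 0.00176) and Racgap1 (3.63, SE 0.67, adjusted p = 0.0251) passed with the larger effect in microglia, 2 of 49 genes, where 0.0772% of 18128 genes did. For Pbk the retina libraries held 3 reads in controls and 1 in knockouts, so the size of the difference depends on the prior count. Racgap1 had log2 changes of opposite sign in the fractions. Leaving out control microglia replicate 3 or 4 left Racgap1 short of the threshold (adjusted p = 0.0598 and 0.0611). Stmn1 did not pass (1.24, SE 0.46, adjusted p = 0.259). At an unadjusted p under 0.05 there were 9 of the 49 (12.5% of all genes), and DESeq2 called 6 higher (2.04% of all genes) and 4 lower (3.88%). The 4 were Mcm3, Rrm2, Cdc20 and Cenpf, none of which had a read in control retina.

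Control microglia and control retina were compared in which of the 50 genes they held. Over all genes, control microglia libraries had counts for 18654 to 19363 and control retina libraries for 16510 to 18715. In control microglia 20 genes were at 1 CPM or more in every library and 4 in none, and in control retina 9 and 22. In this comparison 31 of the 50 passed the filter on low counts. Of these 31 edgeR called 4 higher in microglia, Mcm3, Top2a, Hmmr and Cdc20 (22.8% of the 15188 genes tested were). It called 2 lower, Bub1b and Racgap1 (17.4% were). Both shares of the 31 lie below those over all genes. Mcm3 had 15827 reads in control microglia and 0 in control retina, which gives 5396-fold with a floor of 3 counts over the control retina libraries. On the same floor Top2a, the topoisomerase, came to 365-fold, Cdc20 to 236-fold and Hmmr, a spindle assembly factor, to 215-fold (edgeR adjusted p = 0.000993, 0.0014 and 0.00101). These folds depend on the floor and are not firm minimums. In knockout retina Mcm3 had 378 reads, all in replicates 1 and 5, Cdc20 had 77, Top2a 1 and Hmmr 0. With the replicate number as a block Top2a, Cdc20 and Hmmr fell short of the threshold (adjusted p = 0.0565, 0.0571 and 0.0569). Bub1b was at 7.13 ± 2.48 CPM in control microglia and 59.4 ± 13.9 CPM in control retina (-3.02, SE 0.37, adjusted p = 0.000374). Racgap1 was at 4.50 ± 0.704 and 30.4 ± 17.6 CPM (-2.69, SE 0.51, adjusted p = 0.00348), while the knockout microglia were at 27.0 ± 7.10 CPM. Mki67, Hmmr, Nuf2, Birc5, Melk and Bub1 had no read in any of the 9 retina libraries.

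Other genes of the cell cycle, in 5 lists that share no gene with the 50, stood as follows in microglia. Of 45 further chromosome, kinetochore and spindle genes 38 were measured, 34 had positive log2 changes (median 1.50), 0 were called and 9 were at an unadjusted p under 0.05. The kinesin gene Kif2c, at 0.0935, 0, 0 and 0 CPM in the control libraries and 8.28, 39.3, 2.10, 18.6 and 8.73 CPM in the knockout libraries, came closest (9.22, SE 1.58, edgeR adjusted p = 0.0724), followed by the kinetochore gene Cenpk (8.56, SE 1.93, adjusted p = 0.367). Of 14 G1 cyclins, kinases and phosphatases 12 were positive (median 0.65) and 0 were called. Among them Ccnd1, cyclin D1, had 109, 82.4, 71.0 and 99.4 CPM in the control libraries and 136, 134, 124, 162 and 146 CPM in the knockout libraries, without overlap (0.69, SE 0.14, adjusted p = 0.186), and Cdk6, its kinase partner, a log2 change of 1.03. Of 36 further origin, fork and polymerase genes 33 were measured, 22 were positive (median 0.25) and 0 were called, with the smallest p for the primase gene Prim1 (2.23, SE 0.57, adjusted p = 0.335) and the fork protection gene Tipin (1.06). Of 15 E2F, DREAM and MuvB factors 13 were measured, 8 were positive (median 0.15) and 0 were called, led by Tfdp1 (0.64), the dimer partner of E2F, and E2f2 (2.14).

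Of 10 inhibitors of cyclin-dependent kinases and pocket proteins, 7 were positive (median 0.29) and 1 was called. Cdkn1a, which encodes the inhibitor p21, was at 27.8, 19.3, 17.4 and 17.7 CPM in the control libraries and at 238, 267, 282, 204 and 184 CPM in the knockout libraries. The genotypes were far apart, and the gene rose by 3.57 (SE 0.21, edgeR adjusted p = 0.000118). In retina 0 genes of these 5 lists were called by edgeR, where 1.66% of all genes were. DESeq2 called 4 of them higher in knockout retina (5.35% of all genes), namely Ccnd2, Cdc25c, Cks1b and Rpa1, and 1 lower (2.37%), Cdk7. limma voom called Rpa1, a subunit of the protein that coats single-stranded DNA, higher as well (0.92, adjusted p = 0.0455). These 5 genes were chosen after their values were seen.

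**Figure D5:**
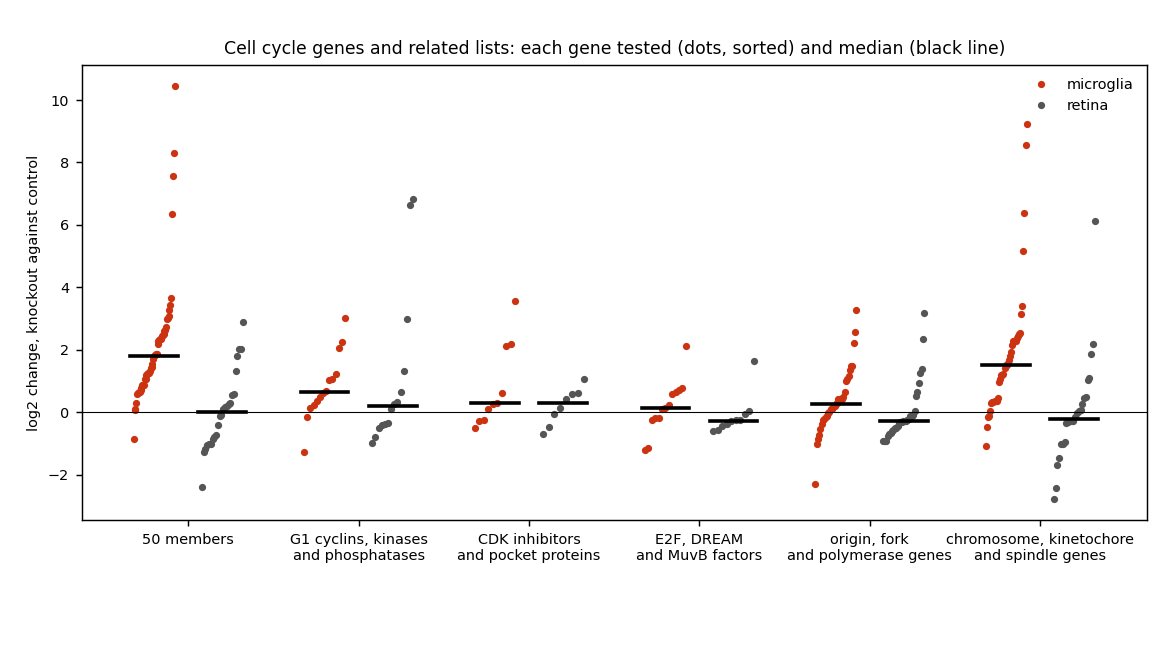
Log2 change of knockout against control for every gene tested (dots, sorted) among the 50 genes and the 5 further lists, in microglia and in retina, with the median as a black line. In microglia the medians are 1.82 for the 49 measured of the 50 and 1.50 for the further chromosome, kinetochore and spindle genes. The other lists have medians of 0.15 to 0.65 in microglia. In retina the medians of all 6 lie between -0.28 and 0.29.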

How the data were processed

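RNA of 18 sorted samples was made into cDNA with a SMARTer Ultra Low kit and sequenced as paired reads, per the labels' protocols; such amplification multiplies few molecules. The authors deposited raw whole-number counts per gene, with no normalization visible in the values. STAR 2.7.9a, DRAGEN, Subread and featureCounts, edgeR, limma and the build GRCm38 are named in the submitters' processing notes, without role or order, and whether counting used strand is not given in the sources used here. The authors also deposited, per the file headers, a table per genotype comparison with log2 fold changes, log2 mean CPM, a likelihood ratio score, and p-values with their adjusted form.

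Of 55774 lines 287 repeated an Ensembl identifier with identical counts, 55487 genes were kept, and 55227 were found in GENCODE M21, which gave positions and exon lengths. No line lacked a name and 0 sample columns were unused. CPM are counts scaled to the library total, without scaling factors. Counts were tested with edgeR 4.0.16 (quasi-likelihood, filterByExpr by group, TMM scaling) in R 4.3.3, with Benjamini-Hochberg adjustment over all genes tested and a threshold of 0.05. The genotype comparisons used the 9 libraries of a fraction, their difference all 18, and the fractions the 8 controls. SE are the log2 change over the root of F. The fits were tested on simulated counts. Alternatives were DESeq2 1.42.0 and its size factors, 2 other filters, limma 3.58.1 voom without and with quality weights, the replicate number as a block, a fit of all libraries, and leaving out libraries. A covariate for the number of genes with a count and leaving out the libraries numbered 1 were chosen after seeing the data.

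The members, roles, further lists and markers were chosen with earlier results of these data known. Values in every library are given for members that passed, for the 12 smallest p in microglia, the 3 smallest in retina, and the highest of each role by mean CPM. From each further list, genes past the threshold are named, otherwise up to 2 with the smallest p. Promoter windows are those of RefSeq.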

Additional observations from a re-analysis of the deposited data

Results flagged for a closer look

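In 66 groups of 4 or 5 libraries checked for a library far from the others, 4 were found. How many chance alone would give in groups with counts near 0 was not measured. All 4 were control microglia. Tk1 had 7.39 CPM in control replicate 2, against 1.70 to 2.38 CPM in the other 3. Plk1 had 0.214 CPM in control replicate 4, Pbk 0.0244 CPM in control replicate 2 and Ndc80 0.0234 CPM in control replicate 1, each with the other controls at or near 0, so that these values stand for 8, 1 and 1 reads.

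The genotype effect differed between microglia and retina for 2 of the 50 genes in the test of the difference itself. For Pbk the log2 change in microglia exceeded that in retina by 11.87 and for Racgap1 by 3.63, with edgeR adjusted p of 0.00176 and 0.0251. Pbk was higher in 5 of 5 knockout microglia libraries than in any control, and so was Racgap1.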

How the results depend on the processing

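The size factors of DESeq2 or another filter gave 2 or 3 members called higher in microglia, against 3 in the reported fit, with Stmn1 lost without a filter (adjusted p = 0.055). limma voom gave 2, with Pbk lost (adjusted p = 0.0577), and 3 with quality weights. The count was 12 with DESeq2, and 0 with the replicate block, with the gene number of each library as a covariate and without the libraries numbered 1. Leaving out 1 library gave 0 to 4. The cause of these moves was not tested, except that the block and the removals leave fewer degrees of freedom. Deviations of same-numbered libraries correlated between -0.0457 and 0.0589, so the numbers were not taken to pair the samples. The same-numbered retina library still correlated best for control microglia 2 and 4 and knockout microglia 1, 3 and 4, but not for the others. Such values cannot show whether same-numbered samples of the fractions shared a mouse. Fits without the block treat them as independent. For the difference between fractions, 2 members in the reported fit became 0 with the replicate block, 6 with DESeq2, 1 with limma voom without or with quality weights, and 1 or 2 without single libraries. For control microglia against control retina, the 4 called higher became 3 with the replicate block, where Top2a, Hmmr and Cdc20 lost their calls, 6 with DESeq2, 7 with no filter, 9 with limma voom without or with quality weights, 12 in a fit of all 18 libraries, and 4 to 9 without single libraries. In retina 0 members were called under every alternative run. The summed level had a ratio of 2.13 to 2.32 without single libraries and 2.28 with TMM scaling, and 2.97 without the helicase and licensing genes. Signs turned for Bub1b in microglia with limma voom (-0.57), for E2f1 in retina with the covariate (-0.71), without the libraries numbered 1 (-0.24) and over single libraries left out (-0.20 to 0.96), and for Stmn1 in retina with the covariate (-0.23). Some members varied widely within a group: Cenpe had 0 reads in knockout microglia replicate 3 and 654 in replicate 5, and Bub1 had 0 in control replicate 1 and 151 in control replicate 4. The cause was not tested, and the totals of these libraries were 41816381, 38836808, 42768750 and 37426380 counts.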
